A study of Homo sapiens with 22 samples.

Results

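The zinc finger gene clusters of chromosome 19 were examined in ChIP-seq peak lists of 22Rv1, a human prostate carcinoma cell line. The members are the listed peaks, called regions here, that touch 1 of 4 intervals of hg19 chromosome 19. Cluster A runs from 20 to 24.5 Mb, cluster B from 36.9 to 38.4 Mb, cluster C from 52.3 to 54 Mb and cluster D from 56 to 58.95 Mb, 10.65 Mb together. Of the 291055 regions in all 8 lists, 2326 lay in the clusters and 18593 elsewhere on chromosome 19. The intervals were chosen by position, but selected on covered length as well: they were proposed with the siE2F3 and siCtrl difference in Pol2S5p covered length already known, so differences between those lists inside the clusters are a description and support nothing.

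The series holds 22 samples, and 8 of them were used, 1 library per group. Pol2S5p, RNA polymerase II with a phosphate on serine 5 of its repeated tail, the form known from starting and paused polymerase, was measured in cells treated with an siRNA against the transcription factor E2F3 (siE2F3), in cells treated with a control siRNA (siCtrl), in cells labelled H1-10 OE, for overexpression of the linker histone variant H1-10, and in Ctrl cells. E2F3 itself and H3K27me3, the histone mark laid down by Polycomb repressive complex enzymes, were each measured in H1-10 OE and Ctrl cells. The names inside the deposited siE2F3 and siCtrl lists also carry overexpression of H1-10, which the sample labels of these libraries do not state. Whether each line is 1 clone is not given in the labels. There are no replicates, so differences are given untested and unchecked by replicates, and the intervals printed are 95% Wilson intervals that cover counting error only. Neighbouring regions are not independent, which makes these intervals too narrow.

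Chromosome 19 is known for long tandem arrays of genes for zinc finger proteins, many with a KRAB domain. KRAB zinc finger proteins bind DNA, often in transposable elements, and recruit the corepressor TRIM28, which brings in enzymes that place H3K9me3. The arrays grew by gene duplication, and their coding ends are themselves known to carry H3K9me3, partly through the zinc finger protein ZNF274. E2F3 is an activator of the E2F family and is known from promoters of cell cycle genes. In the gene order of RefSeq, ZNF682 to ZNF254 (cluster A) holds 34 protein-coding genes, 32 of them zinc finger genes by symbol, among them ZNF91, whose product is known to bind SVA elements. ZNF566 to ZNF573 (cluster B) holds 26 with 25 zinc finger genes, and ZNF577 to ZNF813 (cluster C) holds 46 with 39. ZNF579 to ZNF584 (cluster D) holds 95 with 66, ZNF274 included. It also holds a run of NLRP genes with the maternal-effect gene NLRP5, and the imprinted gene PEG3. All these counts go by the start of the symbol, so a zinc finger gene with another symbol, such as PEG3, is not counted. TRIM28 lies beyond ZNF584 in that order, outside cluster D. These end genes were set from general knowledge of the hg19 map and the names come from GRCh38.p14, so no region below is assigned to a gene.

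RefSeq promoter sequences of GRCh38.p14, 250 bases before to 50 after the gene start, were searched on both strands for the E2F letters TTTCCCGC, TTTCGCGC, TTTGCCGC and TTTGGCGC. The spellings can overlap one another, and a promoter was counted once. At least 1 match was found in 16 of the 139 zinc finger promoters with a sequence in the 4 stretches, 11.5% (7.21 to 17.9%). Matches were found in 5 of 26 promoters in cluster A, 2 of 24 in B, 5 of 32 in C and 4 of 57 in D. The share was 4.93% (3.76 to 6.44%) over 1015 other protein-coding promoters of chromosome 19, 4.40% (1.72 to 10.8%) over the 91 zinc finger promoters among those, and 4.44% over all 15843 protein-coding promoters. The promoter with most matches in each stretch, the first in gene order where several tied, is printed to show what such a zinc finger promoter holds; capitals mark the matches on the printed strand, which is the strand of the gene. A match is a run of letters, not a measured site.
ZNF90 (A): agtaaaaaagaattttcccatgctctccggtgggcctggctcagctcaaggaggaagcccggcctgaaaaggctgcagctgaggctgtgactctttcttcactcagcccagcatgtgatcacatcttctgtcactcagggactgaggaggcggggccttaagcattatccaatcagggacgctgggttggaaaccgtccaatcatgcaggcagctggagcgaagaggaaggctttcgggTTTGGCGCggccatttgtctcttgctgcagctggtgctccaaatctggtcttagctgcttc
ZNF260 (B): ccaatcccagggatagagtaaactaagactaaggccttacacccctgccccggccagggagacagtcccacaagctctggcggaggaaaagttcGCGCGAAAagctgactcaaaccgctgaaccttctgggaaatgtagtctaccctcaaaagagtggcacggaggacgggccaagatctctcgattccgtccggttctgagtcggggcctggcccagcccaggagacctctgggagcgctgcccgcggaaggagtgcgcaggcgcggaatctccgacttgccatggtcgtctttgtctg
ZNF577 (C): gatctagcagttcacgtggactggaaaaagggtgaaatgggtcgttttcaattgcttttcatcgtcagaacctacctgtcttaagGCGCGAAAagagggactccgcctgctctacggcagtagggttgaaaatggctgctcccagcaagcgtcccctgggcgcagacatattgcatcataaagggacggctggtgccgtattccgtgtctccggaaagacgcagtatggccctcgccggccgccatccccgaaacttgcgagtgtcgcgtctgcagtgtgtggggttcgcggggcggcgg
ZNF444 (D): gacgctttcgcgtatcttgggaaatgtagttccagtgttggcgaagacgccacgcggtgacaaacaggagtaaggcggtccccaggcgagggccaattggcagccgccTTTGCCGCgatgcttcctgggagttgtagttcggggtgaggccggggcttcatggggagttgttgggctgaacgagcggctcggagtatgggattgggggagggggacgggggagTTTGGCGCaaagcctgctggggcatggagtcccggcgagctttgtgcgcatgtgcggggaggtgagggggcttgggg
The ZNF90 promoter, on the plus strand, had 9 CG pairs and a GC content of 55.0%, and the ZNF444 promoter, also on the plus strand, had 23 CG pairs and 63.7%. ZNF260 and ZNF577, both on the minus strand, had 20 and 25 CG pairs. Over the zinc finger promoters the median number of CG pairs was 10 in the cluster A stretch, against 20, 25 and 23 in those of B, C and D.

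Pol2S5p regions were denser in clusters B, C and D than in A in each of the 4 Pol2S5p lists. In siE2F3 there were 124 regions covering 83.9 kb in cluster A, 180 covering 119 kb in B, 140 covering 113 kb in C and 368 covering 427 kb in D. The siCtrl list held 87 regions (65.6 kb), 127 (91.2 kb), 93 (82.8 kb) and 322 (433 kb) in A, B, C and D. In H1-10 OE the counts were 31 (18.8 kb), 39 (35.0 kb), 40 (28.8 kb) and 165 (143 kb). Ctrl had 112 (84.6 kb), 53 (46.2 kb), 53 (47.1 kb) and 146 (162 kb). Cluster A, the longest interval, was thus the least covered: Pol2S5p regions took up 0.418% of it in H1-10 OE and between 1.46 and 1.88% in the other lists, against 4.85 to 14.7% of cluster D. The whole lists hold 83067, 83650, 40626 and 35493 regions for siE2F3, siCtrl, H1-10 OE and Ctrl. The read depth behind them is unknown, so counts were compared within a pair, as shares, or against the rest of chromosome 19.

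**Figure D1:**
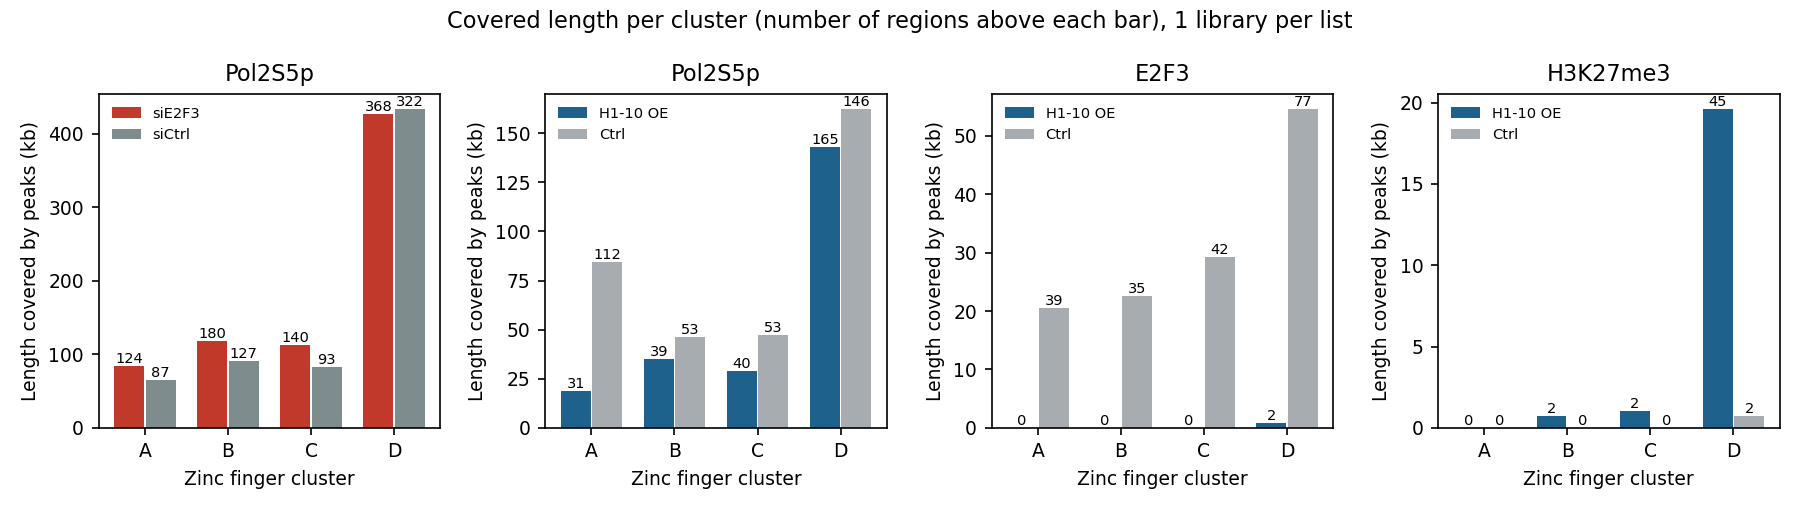
Length covered by regions (kb, linear axis from 0, a separate scale in each panel) in zinc finger clusters A to D, with the number of regions above each bar and 1 library per bar. In the first panel siE2F3 exceeds siCtrl in A, B and C and is slightly below it in D (427 and 433 kb); in the second, H1-10 OE is below Ctrl in all 4 clusters, furthest in A (18.8 and 84.6 kb), while both differences in D turn round when scaled to the rest of chromosome 19.

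With siE2F3 the clusters together had more Pol2S5p regions and more covered length than with siCtrl, while the rest of the chromosome had less covered length. The covered length was 742 kb in siE2F3 and 672 kb in siCtrl over all 4 clusters, a ratio of 1.10. The ratio was 1.28 in cluster A, 1.30 in B and 1.36 in C, but 0.986 in D, where it turned to 1.14 when scaled to the rest of the chromosome and to 1.11 when scaled to the whole lists. Outside the clusters chromosome 19 had 7823 kb in siE2F3 and 9061 kb in siCtrl, a ratio of 0.863, and the whole lists had a ratio of 0.885. In count the clusters had 812 regions in siE2F3 and 629 in siCtrl, with 5184 and 5031 on the rest of the chromosome. The authors' fold enrichment had a lower median in siE2F3, 4.64 against 4.93 in the clusters and 4.47 against 4.84 over the whole lists.

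Most of the surplus came from regions without a siCtrl counterpart. In the clusters 286 of 812 siE2F3 regions (35.2%) overlapped no siCtrl region by even 1 bp, against 22.9% over the whole list and 14.8% over the rest of chromosome 19. Conversely 133 of 629 siCtrl regions (21.1%) overlapped no siE2F3 region, against 30.6% over the whole list and 28.3% over the rest of chromosome 19. The siE2F3-only share was 37.1% in cluster A, 52.2% in B, 43.6% in C and 23.1% in D. These regions covered 118 kb, and another 104 kb came from siE2F3 regions reaching past the edges of shared ones. In siCtrl, regions without a siE2F3 counterpart covered 54.8 kb and edges of shared ones 97.7 kb.

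The siE2F3-only regions were narrow and weak, as regions in 1 list only were elsewhere too. Their median width was 353 bp and their median fold enrichment, the authors' own value at the summit, was 3.76, against 856 bp and 5.58 for siE2F3 regions shared with siCtrl. The siE2F3-only regions of the rest of chromosome 19 had medians of 358 bp and 3.74, and the siCtrl-only regions of the clusters had 363 bp and 4.07. Of the 286, 242 (84.6%) were within 5 kb of a siCtrl region, at a median distance of 1.08 kb, against 708 of 767 (92.3%) and a median of 0.584 kb on the rest of chromosome 19. The other 44 lay farther away, and the 5 most significant of these had folds of 4.74 to 5.58. The highest was chr19:58760737-58761160 in cluster D (fold 5.58), and 41.1% of the whole siE2F3 list had a higher −log10 q, the significance given by the authors' caller. Next were chr19:23541972-23542322 in A, which Ctrl also listed, chr19:36972105-36972473 in B and chr19:53392038-53392721 in C, each with a fold of 5.03. The fifth was chr19:21563066-21563531 in A. The 5 siCtrl-only regions chosen in the same way had folds of 4.09 to 6.62, led by chr19:21288914-21289431 in A.

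The surplus was found in every window of cluster C, most windows of A that held regions and the first 4 windows of B, and was mixed in D. In 250-kb windows siE2F3 covered more than siCtrl in all 7 windows of cluster C, 4 of 6 in B, 11 of 18 in A and 5 of 12 in D. siCtrl covered more in 0 windows of C, 2 of B, 1 of A and 5 of D, and the remaining windows were equal. By 100-kb windows, the largest surplus in cluster C was at 52.7 to 52.8 Mb, with 27.8 kb in siE2F3 and 18.8 kb in siCtrl, and then at 53.3 to 53.4 Mb, with 7.63 and 2.65 kb. In cluster B it was at 37.2 to 37.3 Mb, with 18.0 kb in siE2F3 and 10.5 kb in siCtrl, and at 37 to 37.1 Mb, with 15.4 and 9.88 kb. Cluster A had its largest at 23.4 to 23.5 Mb, with 21.2 kb in siE2F3 and 16.9 kb in siCtrl, and the next at 21.3 to 21.4 Mb, with 10.7 and 7.52 kb. Cluster D had both signs at its far end: 31.2 kb in siE2F3 and 24.7 kb in siCtrl at 58.7 to 58.8 Mb, but 44.6 and 50.1 kb in the next window, 58.8 to 58.9 Mb. Its second surplus was at 57.7 to 57.8 Mb, with 20.4 and 16.8 kb, and its other deficit at 56.1 to 56.2 Mb, with 66.8 and 71.2 kb. Deficits in A, B and C were small: in A, 21.2 to 21.3 Mb had 9.61 kb in siE2F3 and 11.4 kb in siCtrl, in B, 38.1 to 38.2 Mb had 6.39 and 7.73 kb, and in C, 53.5 to 53.6 Mb had 0.383 and 0.971 kb. The second deficit in each was smaller still, with 0 kb in siE2F3 and 0.309 kb in siCtrl at 20.1 to 20.2 Mb, 4.87 and 5.59 kb at 37.9 to 38 Mb, and 1.78 and 2.15 kb at 53.1 to 53.2 Mb.

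**Figure D2:**
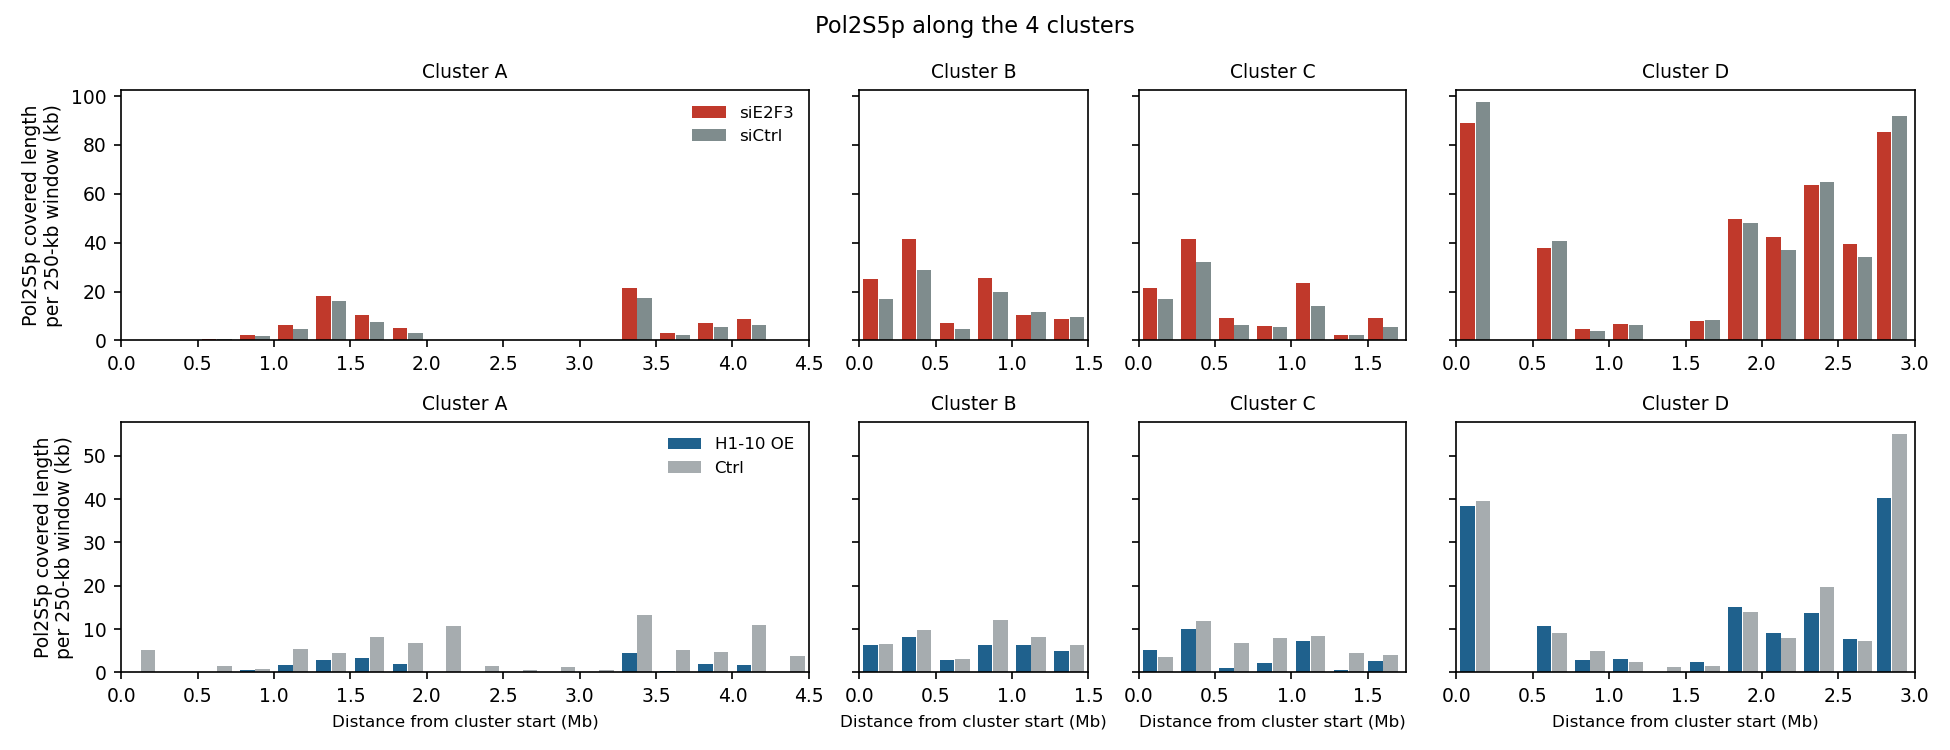
Length covered by Pol2S5p regions (kb) in consecutive 250-kb windows of the 4 clusters, by distance from the cluster start (Mb); siE2F3 and siCtrl are in the upper row and H1-10 OE and Ctrl in the lower row, whose axis has its own scale. siE2F3 covers more than siCtrl in 27 of 43 windows and less in 8, and H1-10 OE covers more than Ctrl in 7 and less in 34.

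At the borders of the intervals the difference did not begin sharply everywhere. The 250 kb inside the left border of cluster B had 25.2 kb in siE2F3 and 16.9 kb in siCtrl, and the 250 kb outside had 26.0 and 25.8 kb. At the right border of B the inside held 8.69 kb in siE2F3 and 9.41 kb in siCtrl and the outside 5.34 and 5.23 kb. For cluster C the left inside had 21.4 and 17.0 kb and the outside 20.2 and 19.6 kb; the right inside had 9.08 and 5.43 kb and the outside 1.85 and 2.28 kb. Cluster D had less in siE2F3 on both sides of its left border, with 88.8 and 97.4 kb inside and 83.1 and 99.2 kb outside. At its right border the inside held 99.2 kb in siE2F3 and 102 kb in siCtrl, and the outside 63.4 and 69.6 kb. Cluster A borders on near-empty sequence within, with 0 kb in siE2F3 and 0.309 kb in siCtrl in its first 250 kb and 35.6 and 32.3 kb outside; at its right border 0.388 kb in siE2F3 and 0 kb in siCtrl lay inside, and no region of either list lay outside. Of all members, 3 crossed a border, all of cluster D.

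In H1-10 OE the clusters together had less Pol2S5p covered length than in Ctrl, and the difference was largest in cluster A. Over all 4 clusters the covered length was 226 kb in H1-10 OE and 340 kb in Ctrl, a ratio of 0.664. The ratio was 0.222 in cluster A, 0.757 in B, 0.611 in C and 0.883 in D, where it turned to 1.01 when scaled to the rest of the chromosome. It was 0.874 on the rest of chromosome 19 and 0.908 over the whole lists. In count the clusters held 275 regions in H1-10 OE and 364 in Ctrl, while the rest of the chromosome held more in H1-10 OE, 3299 against 2714. Without cluster A the total counts were close, with 244 regions in H1-10 OE and 252 in Ctrl, but the clusters differed in direction. H1-10 OE held fewer in B (39 and 53) and C (40 and 53) and more in D (165 and 146). The ratio of covered length without cluster A was 0.810.

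H1-10 OE regions without overlap in Ctrl numbered 72 of 275 (26.2%, 21.3 to 31.7%), against 42.8% over the whole list and 38.5% over the rest of chromosome 19. Ctrl regions without overlap in H1-10 OE numbered 174 of 364 (47.8%, 42.7 to 52.9%), against 41.0% over the whole list and 37.0% over the rest of chromosome 19. In cluster A they were 87 of 112 (77.7%, 69.1 to 84.4%), in B 20 of 53 (37.7%, 25.9 to 51.2%), in C 24 of 53 (45.3%, 32.7 to 58.5%) and in D 43 of 146 (29.5%, 22.7 to 37.3%). The count of Ctrl-only regions was 87 without cluster A. So the surplus over the background in this direction rests on cluster A, the intervals of B, C and D including or lying below the 41.0% of the whole list.

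**Figure D3:**
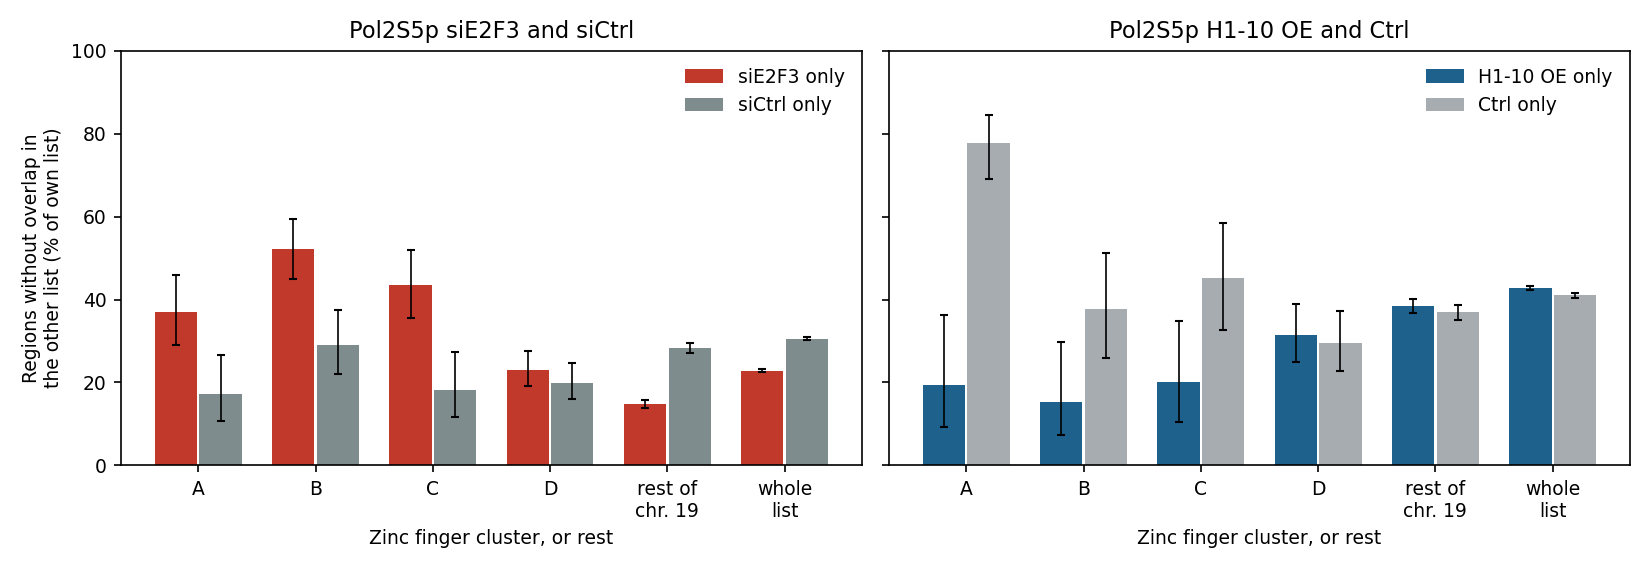
Share of the Pol2S5p regions of each list (%) that overlap no region of the paired list, in clusters A to D, on the rest of chromosome 19 and in the whole list; bars start at 0 and whiskers are 95% Wilson intervals of counting error, with 1 library per list. siE2F3-only shares are 37.1, 52.2, 43.6 and 23.1% in A to D against 14.8% on the rest of the chromosome, and the Ctrl-only share is highest in cluster A, at 77.7%.

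The Ctrl-only regions of the H1-10 OE comparison had a median fold of 4.17, against 12.5 for Ctrl regions shared with H1-10 OE. Exactly 87 of the 174 lay in cluster A, where H1-10 OE held 31 regions in all. The median distance of the 174 to the nearest H1-10 OE region was 23.6 kb, against 2.21 kb for the Ctrl-only regions of the rest of chromosome 19. An H1-10 OE region lay within 5 kb of 24.1% of them, against 68.3% on the rest of chromosome 19, and 132 of 174 had none that near. Of these 132, the 5 most significant ranked among the strongest 7.67 to 16.8% of the Ctrl list. They were chr19:22017388-22019635 in cluster A (fold 14.3), chr19:53140779-53142094 in C (fold 26.2), chr19:24269670-24270618 in A (fold 16.8), chr19:56879289-56880031 in D (fold 22.5) and chr19:21182417-21183197 in A (fold 14.5). Each of the 5 coincided with E2F3 binding listed in Ctrl. Both siRNA lists, siE2F3 and siCtrl, held the region in C and lacked the other 4. The 5 were picked by significance, so their E2F3 overlap does not describe the Ctrl-only regions at large. With overlapping regions of the 4 Pol2S5p lists joined into sites, 158 cluster sites were in Ctrl without H1-10 OE. E2F3 of Ctrl lay at 42 of the 158 (26.6%, 20.3 to 34.0%). The share was 23.5% (20.2 to 27.1%) on the rest of chromosome 19. Of the 72 H1-10 OE-only regions, 62.5% had a Ctrl region within 5 kb, against 70.3% on the rest of chromosome 19. Among the 27 that had none, the most significant was chr19:52390802-52391579 in cluster C (fold 16.9), which siE2F3 and siCtrl held as well. The next 3, chr19:57803104-57803441, chr19:58715164-58715801 and chr19:57845512-57845971 in D, had folds of 5.64 to 5.85 and were in both siRNA lists, and chr19:21900991-21901641 in A had a fold of 5.32 and was in neither.

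A stretch of cluster A from 22 to 23.25 Mb held regions in the Ctrl lists only; it was chosen after its values were seen. Pol2S5p had 0 regions there in siE2F3, siCtrl and H1-10 OE, and 16 covering 14.4 kb in Ctrl, with folds of 3.18 to 20.2. Names inside the siE2F3 and siCtrl lists also carry overexpression of H1-10, so these 3 lists may share a line and need not be separate cases. E2F3 had 0 regions in H1-10 OE and 8 in Ctrl, with folds of 5.37 to 33.8. The 16 Ctrl regions began with a run from chr19:22003538-22004295 to chr19:22017388-22019635 and went on, single and spaced, to chr19:23185639-23186190. Those with the highest folds were chr19:22034344-22035191 (20.2), chr19:22816613-22817492 (19.8), chr19:22398217-22398855 (19.2) and chr19:22234940-22235598 (17.7), each overlapping an E2F3 region of Ctrl. The rest of the 16 were mixed in this, and most of the opening run overlapped no E2F3 region. The widest gap between neighbouring Pol2S5p regions of cluster A spanned this stretch in the 3 other lists, 1.45 Mb in each, with ends near 21950602 and 23399670 in siE2F3, and the widest gap in Ctrl was 0.563 Mb and lay elsewhere, at chr19:20163521-20726739. The rest of cluster A also differed, with 31 regions in H1-10 OE and 96 in Ctrl. Input coverage was not analysed here, so a difference in Pol2S5p and one in DNA copy number between the lines cannot be told apart in this stretch.

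E2F3 regions in the clusters were listed almost wholly in Ctrl, as they were on the rest of chromosome 19. The E2F3 list of H1-10 OE held 2 cluster regions and that of Ctrl held 193, of which 39 were in A, 35 in B, 42 in C and 77 in D. The ratio of these counts was 0.0104 (0.00125 to 0.0379, exact interval of counting error), against 0.0203 on the rest of chromosome 19, with 30 and 1480 regions, and 0.187 over the whole lists. The value of the rest of chromosome 19 lies inside this interval. Of the Ctrl regions 191 of 193 (99.0%, 96.3 to 99.7%) had no overlap in H1-10 OE, against 97.4% over the whole list and 98.2% over the rest of chromosome 19. Neither of the 2 H1-10 OE regions lacked an overlap in Ctrl. That share was 85.9% over the whole list, but 3 of 30 (10.0%) on the rest of chromosome 19. By length cluster D had 0.808 kb in H1-10 OE and 54.5 kb in Ctrl, a ratio of 0.0148, which turned to 1.45 when scaled to the rest of the chromosome and rests on 2 regions. Those 2 regions were chr19:56111362-56111781 (fold 6.60), which also overlapped all 4 Pol2S5p lists, and chr19:56014948-56015335 (fold 4.23), which overlapped the Pol2S5p list of H1-10 OE alone. The most significant E2F3 region of Ctrl was chr19:21657337-21658181 in A (fold 49.8), chr19:36980098-36980871 in B (fold 27.8), chr19:53237846-53238693 in C (fold 22.6) and chr19:58891776-58892871 in D (fold 35.4). Those of B, C and D overlapped all 4 Pol2S5p lists, and that of A overlapped the Ctrl list alone.

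Of the 193 E2F3 regions of Ctrl, 140 (72.5%) overlapped a Pol2S5p region in siE2F3 and 142 (73.6%) in siCtrl, and 133 (68.9%) did so in H1-10 OE and 175 (90.7%, 85.7 to 94.0%) in Ctrl. On the rest of chromosome 19 these shares were 77.8, 83.5, 73.6 and 81.1% in the same order of lists. Over the whole E2F3 list of Ctrl they were 67.8, 70.6, 64.6 and 68.0%. For siE2F3, siCtrl and H1-10 OE the direction thus depended on the background. Their cluster shares lay below the rest of chromosome 19 but above the whole list, whose shares fell inside the counting intervals of the clusters. For Ctrl the cluster share lay above both backgrounds. In cluster A 16 of 39 overlapped Pol2S5p in siE2F3, 17 in siCtrl, 15 in H1-10 OE and 34 in Ctrl. In cluster B the counts were 31, 31, 30 and 33 of 35, so most E2F3 regions there had a Pol2S5p region in each list. Cluster C had 30, 30, 24 and 39 of 42, and cluster D had 63, 64, 64 and 69 of 77.

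Joining the 4 Pol2S5p lists gave 951 separate sites in the clusters. The largest class was 261 sites in siE2F3 alone, 27.4% of the sites against 12.7% on the rest of chromosome 19. Next came 205 in siE2F3 and siCtrl together (21.6 against 23.8%) and 161 in all 4 lists (16.9 against 20.0%). Sites in siCtrl alone numbered 115 (12.1 against 21.3%), and sites in Ctrl alone 100 (10.5 against 5.58%). Sites in all 4 lists overlapped E2F3 of Ctrl in 121 cases (75.2%, 67.9 to 81.2%), against 70.9% on the rest of chromosome 19. None of the 276 sites held by siE2F3 and lacking in siCtrl overlapped an E2F3 region of Ctrl (0 to 1.37%); on the rest of the chromosome 9 of 735 (1.22%) did. The 205 sites of the siRNA pair also had no E2F3 region, against 2.24% of 1296 such sites elsewhere on the chromosome. Of the 626 sites without a Ctrl region 2 overlapped E2F3 (0.319%, 0.0877 to 1.16%), against 131 of 3731 (3.51%, 2.97 to 4.15%) on the rest of chromosome 19. Sites in Ctrl alone overlapped it in 32 of 100 cases (32.0%, 23.7 to 41.7%), and 66 of these 100 sites were in cluster A, 17 of them with E2F3. On the rest of chromosome 19 sites in Ctrl alone overlapped it in 77 of 304 cases (25.3%, 20.8 to 30.5%). The lists come from 2 pairs with different folder names inside the peak names and different lengths, and the part of this in the site classes was not tested.

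**Figure D4:**
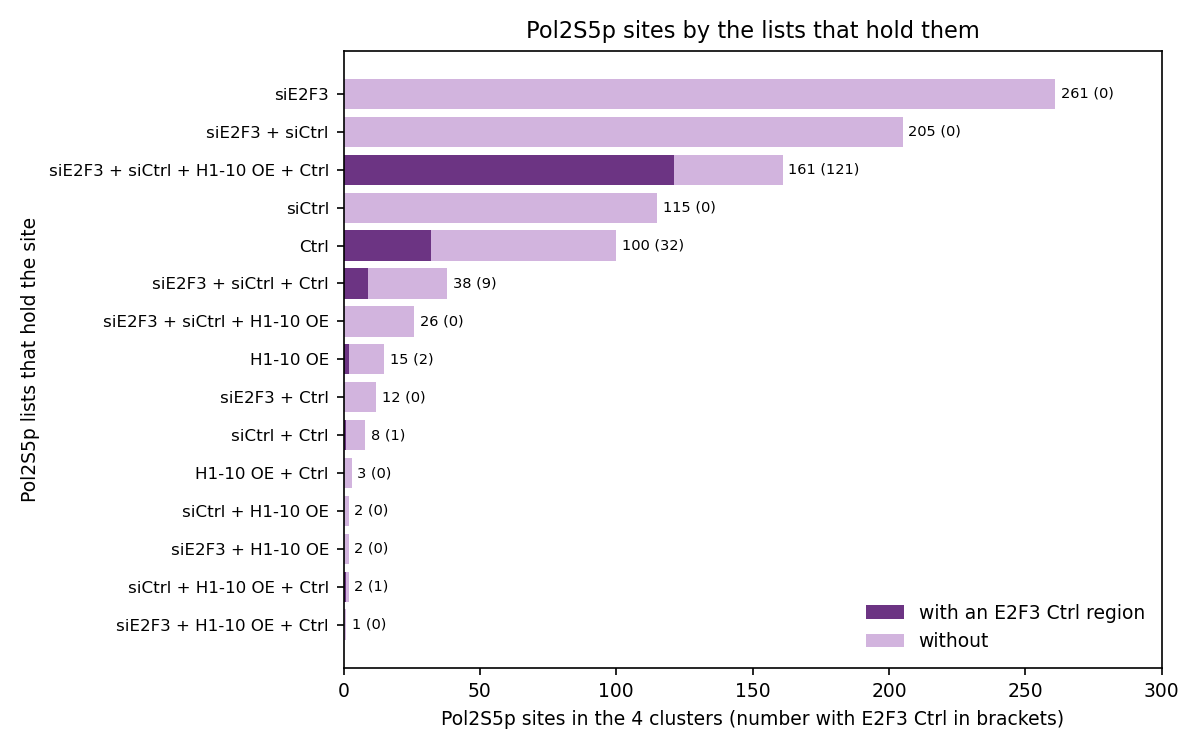
Number of Pol2S5p sites in the 4 clusters (x axis) by the combination of the 4 Pol2S5p lists that hold them (y axis), split into sites with and without an overlapping E2F3 region of Ctrl; brackets give the number with E2F3. E2F3 lies at 121 of the 161 sites in all 4 lists and at 0 of the 261 sites in siE2F3 alone.

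H3K27me3 was almost absent from the clusters apart from 1 part of cluster D. The H1-10 OE list held 0 regions in A, 2 in B, 2 in C and 45 in D, and the Ctrl list held 2, both in D. The ratio of the counts was 24.5 (6.43 to 208, exact interval of counting error). It was 8.40 on the rest of chromosome 19, with 764 and 91 regions, and 7.24 over the whole lists, which hold 18395 and 2540 regions. Both of these values lie inside the interval. The ratio of the clusters rests on weak regions. With both lists cut to equal numbers of their strongest peaks the clusters held 4 regions in H1-10 OE only and 2 in Ctrl only. The ratio of covered length was then 2.19. Of the 49 regions, 4 had a −log10 q of at least 5. None of the 49 H1-10 OE regions overlapped either of the 2 Ctrl regions, where 97.2% of the whole H1-10 OE list and 77.6% of the whole Ctrl list had no overlap in the other. On the rest of chromosome 19 those shares were 96.3 and 51.6%. In D, 41 of the 45 regions of H1-10 OE lay at 56.2 to 56.8 Mb, as did both Ctrl regions, chr19:56228322-56228614 (fold 4.02) and chr19:56228811-56229242 (fold 3.57). The 3 most significant of H1-10 OE were there too, chr19:56227707-56228187, chr19:56289717-56290113 and chr19:56553856-56554243, each with a fold of 6.21. The regions of B were chr19:38308298-38308690 (fold 5.11) and chr19:37547439-37547775 (fold 3.65), and those of C were chr19:53539665-53540336 (fold 4.14) and chr19:53541548-53541887 (fold 3.63).

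None of the 49 H1-10 OE regions of H3K27me3 overlapped a region of any Pol2S5p list (0 to 7.27%), and overlap was rare elsewhere too. On the rest of chromosome 19, 3.01% of the H1-10 OE regions overlapped Pol2S5p in siE2F3, 4.84% in siCtrl, 3.66% in H1-10 OE and 3.53% in Ctrl, all within the interval of the clusters. Within 5 kb of a Pol2S5p region lay 0 of the 49 in siE2F3, 1 in siCtrl, 0 in H1-10 OE and 4 in Ctrl. The median distance to the nearest one was 51.1 kb in siE2F3, 49.3 kb in siCtrl, 52.5 kb in H1-10 OE and 49.4 kb in Ctrl. Distances were not computed for the rest of chromosome 19 or the whole list, so they are not shown to be particular to the clusters. Most of the 49 lie in the 1 stretch at 56.2 to 56.8 Mb. From 56.25 to 56.5 Mb H1-10 OE had 20 H3K27me3 regions covering 8.96 kb, Ctrl had none, and no Pol2S5p or E2F3 list had a region. Both stretches were chosen after their values were seen.

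**Figure D5:**
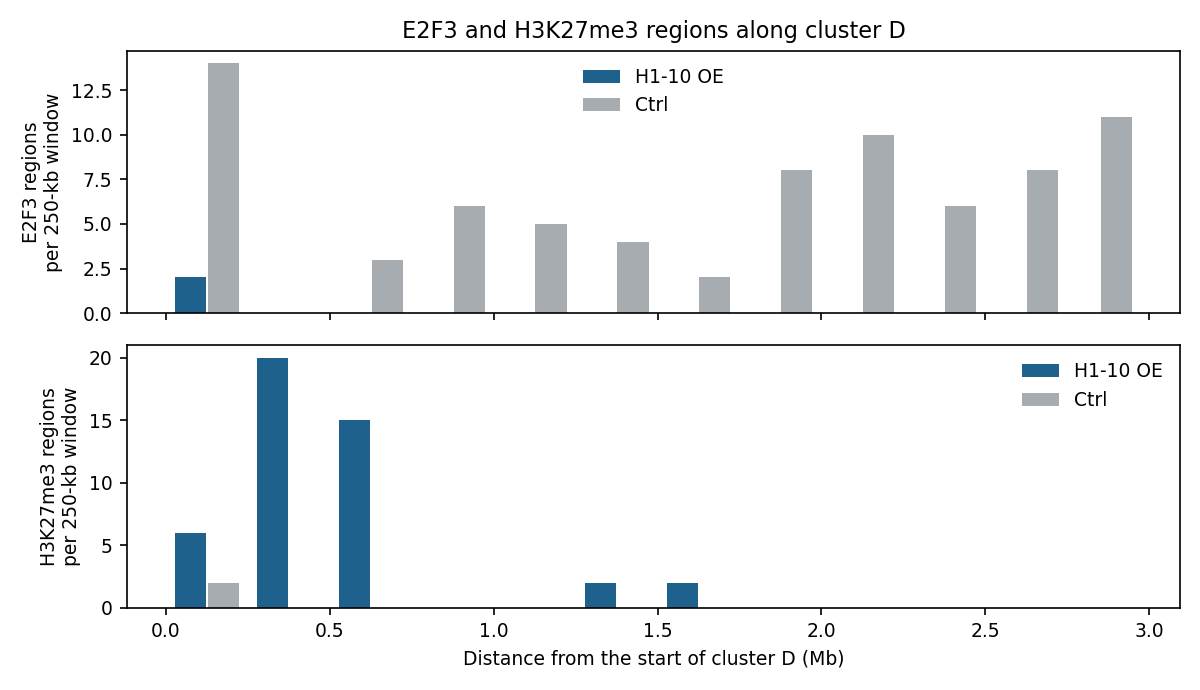
Number of E2F3 regions (upper panel) and H3K27me3 regions (lower panel) per 250-kb window of cluster D, by distance from its start (Mb), for H1-10 OE and Ctrl, 1 library each. E2F3 regions belong almost wholly to Ctrl (2 in H1-10 OE and 77 in Ctrl), as on the rest of chromosome 19 (30 and 1480). H3K27me3 regions of H1-10 OE concentrate in the first part of the cluster, 41 of 45 at 56.2 to 56.8 Mb.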

How the data were processed

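Each deposited list belongs to 1 sample, so the authors called peaks library by library; 8 of 22 samples were used and 14, 10 inputs and 4 H1-10 libraries, were not analysed here. The submitters' processing notes name hg19, Bowtie, fastp and FastQC; their versions, the peak caller and its threshold were not stated in the notes or labels read here. The deposited lists give a peak score, a fold enrichment as a ratio to the authors' background, and −log10 p and −log10 q values. All of these were made by the authors, the lowest −log10 q in a list being 1.30 to 1.35, and the depth behind them is unknown. The peak names of siE2F3, siCtrl and both E2F3 lists carry 1 folder name, and those of the other 4 lists another.

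Positions are 1-based. A region was a member if it touched a cluster by 1 bp, and length was counted inside the borders only. Regions of paired lists were shared if they overlapped by 1 bp. Sites joined overlapping regions of the 4 Pol2S5p lists. The comparisons are siE2F3 against siCtrl and H1-10 OE against Ctrl, described by counts, shares with 95% Wilson intervals and covered length, with no test, since each group has 1 library. The counting covers overlap and length and was checked on simulated lists and against bedtools 2.31.1. Python 3.11.15, numpy 2.4.6, pandas 2.3.3 and matplotlib 3.10.9 were used.

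Regions are named by rule: per Pol2S5p pair and direction the 5 with the highest −log10 q that were in 1 list only and lay over 5 kb from any of the paired list; per cluster the strongest E2F3 region of Ctrl; every E2F3 region of H1-10 OE and H3K27me3 region where a cluster holds 5 or fewer, otherwise the strongest 3; and per cluster the 2 windows of 100 kb with the largest gain and the 2 with the largest loss in siE2F3. Stretches chosen after values were seen are named as such. The members and lists were chosen with earlier results of these data known. Alternatives tried were 50% reciprocal overlap, merging of peaks within 1 kb, a minimum −log10 q of 5, lists cut to the same number of their strongest peaks, membership by summit, borders drawn in by 250 kb, and scaling to the whole list or the rest of chromosome 19. Leaving out cluster A was added after the data were seen.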

Additional observations from a re-analysis of the deposited data

How the results depend on the processing

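No paired analysis was possible because each group holds 1 library. Of 85 recomputed values over all clusters together, 60 moved by less than 1.5 times and 25 by more. Of the values per cluster, 46 moved by less, 5 by more and 6 reversed. One-list shares over the whole lists or the rest of chromosome 19 were not recomputed, so the counts below do not show whether an excess over background holds. For Pol2S5p, regions in siE2F3 only numbered 118 and regions in siCtrl only 53 at a −log10 q of at least 5, 481 and 298 at 50% reciprocal overlap, and 127 and 80 with peaks within 1 kb merged. The q cut was made in both lists, so it can itself remove a counterpart. Before it, 50 of the 286 siE2F3-only and 20 of the 133 siCtrl-only regions had a −log10 q of at least 5. Regions in H1-10 OE only numbered 25 and in Ctrl only 87 at a −log10 q of at least 5. H1-10 OE only gave 141 at 50% reciprocal overlap, 45 merged and 47 with borders drawn in by 250 kb, and Ctrl only gave 87 without cluster A. For E2F3, with equal numbers of the strongest peaks, Ctrl only gave 28 and the log2 ratio of covered length, H1-10 OE over Ctrl, was -5.24. H1-10 OE only gave 1 at 50% reciprocal overlap. Scaling to the whole list gave a log2 ratio of -4.29, and scaling to the rest of chromosome 19 gave -0.68. For H3K27me3, H1-10 OE only gave 4 both at a −log10 q of at least 5 and with equal numbers of the strongest peaks. Ctrl only gave 0 at a −log10 q of at least 5 and with borders drawn in, and 1 merged. The log2 ratio, whose base is 2 Ctrl regions, was 1.13 with equal numbers, 2.14 scaled to the whole list and 1.93 scaled to the rest of chromosome 19; at a −log10 q of at least 5 there was none, Ctrl being at 0. No log2 ratio could be had where a cluster held 0 regions.

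All 6 log2 ratios of covered length that reversed were those of cluster D. For siE2F3 over siCtrl they were 0.026 merged, 0.033 with borders drawn in, 0.16 scaled to the whole list and 0.19 scaled to the rest of chromosome 19. For H1-10 OE over Ctrl, scaled to the rest of chromosome 19, they were 0.015 for Pol2S5p and 0.54 for E2F3. The causes were not tested. Depth is unknown, and a region missing from a list is one below the authors' threshold.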

Other observations

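Outside the 4 clusters, chromosome 19 carries other runs of zinc finger genes, known in general from the hg19 map near 9 to 10, 11.6 to 12.8 and 44.3 to 45.1 Mb. These intervals were set after values of the clusters were seen and are given as values only. From 9 to 10 Mb, Pol2S5p had 98 regions covering 102 kb in siE2F3 and 82 covering 96.7 kb in siCtrl, and 41 covering 29.2 kb in H1-10 OE and 31 covering 27.6 kb in Ctrl. From 11.6 to 12.8 Mb there were 142 regions (151 kb) in siE2F3 and 141 (159 kb) in siCtrl, and 61 (50.1 kb) in H1-10 OE and 66 (62.7 kb) in Ctrl. From 44.3 to 45.1 Mb there were 90 (63.3 kb) in siE2F3 and 74 (56.6 kb) in siCtrl, and 32 (25.0 kb) in H1-10 OE and 31 (22.8 kb) in Ctrl. Regions in siE2F3 only made up 29.6, 26.1 and 25.6% of the siE2F3 regions of the 3 intervals. That share was 22.9% over the whole list and 14.8% over chromosome 19 outside the 4 clusters. Regions in siCtrl only made up 14.6, 26.2 and 12.2% of the siCtrl regions, against 30.6 and 28.3% over the same 2 backgrounds. For E2F3, H1-10 OE had 0, 0 and 1 regions in these intervals and Ctrl had 15, 37 and 13. Chromosome 19 outside the 4 clusters had 30 and 1480 E2F3 regions in H1-10 OE and Ctrl. For H3K27me3, H1-10 OE had 14, 1 and 3 regions in the 3 intervals and Ctrl had 0 in each, beside 764 and 91 outside the 4 clusters.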
